A study of Mus musculus with 3 samples.

Results

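The genes described here are 9 transcription factor genes of tooth root and skeletal differentiation: the nuclear factor I genes Nfia, Nfib, Nfic and Nfix, the runt-domain genes Runx1, Runx2 and Runx3, the zinc finger gene Sp7 (osterix) and the basic helix-loop-helix gene Twist1. They were taken by name, and each was given the open chromatin windows whose midpoint lay inside the gene or within 10 kb of it. That rule gave 17 of the 13500 windows, for 9 of the 21887 protein-coding genes of the annotation. Positions are in mm10, and the gene table does not say whether a window is exonic or intronic. The windows, each 201 bp long, come from ATAC-seq, in which Tn5 transposase cuts accessible DNA, and they were searched for the binding motif of the zinc finger factor Plagl1 (Zac1). Cells came from the apical portion of the first molars of C57BL/6 mice at postnatal day 7.5, with 5000 cells per library. Of 3 libraries, 2 were from Arid1a fl/fl controls and 1 from the Gli1-CreER;Arid1a fl/fl mutant. The floxed Arid1a alleles are therefore present in every library, and the Cre driver only in the mutant one. Tamoxifen in corn oil was given to both groups, per the labels' protocols, at 1.5 mg per 10 g on postnatal day 3.5. Gli1-CreER acts in cells that express Gli1, and the labels mention no sorting, so the mutant library can hold undeleted cells. The window list names no library. Mutant and control could therefore not be compared, the depth behind a window is unknown, no value has a replicate error, and no test was run.

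Nuclear factor I proteins bind DNA as dimers at TTGGC half-sites, and loss of Nfic in mice leaves molars with short or missing roots. Runx proteins bind TGTGGT or TGCGGT with their partner Cbfb. Runx genes are commonly transcribed from an upstream (distal) and a downstream (proximal) promoter, which give proteins that differ at the amino terminus. Runx2 is required for osteoblast formation, Sp7 acts downstream of it in bone and dentine-forming cells, and Twist1 holds Runx2 activity back in early mesenchyme.

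All 9 genes had at least 1 window, under a rule that 59.5% of all protein-coding genes met. The exact 95% interval of that share (9 of 9, Clopper-Pearson, counting error only) ran from 66.4% to 100%, and the share is a description of genes chosen with results of these data known. Within 1 kb of a gene end, 4 of the 9 had a window (44.4%, exact 95% interval 13.7 to 78.8), close to the 46.6% of all protein-coding genes. Those 4 were Nfib, Runx3, Sp7 and Twist1. The 17 windows were 10 inside a gene and 7 in a flank, and 13 of them also lay inside or within 10 kb of some other annotated gene.

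**Figure D1:**
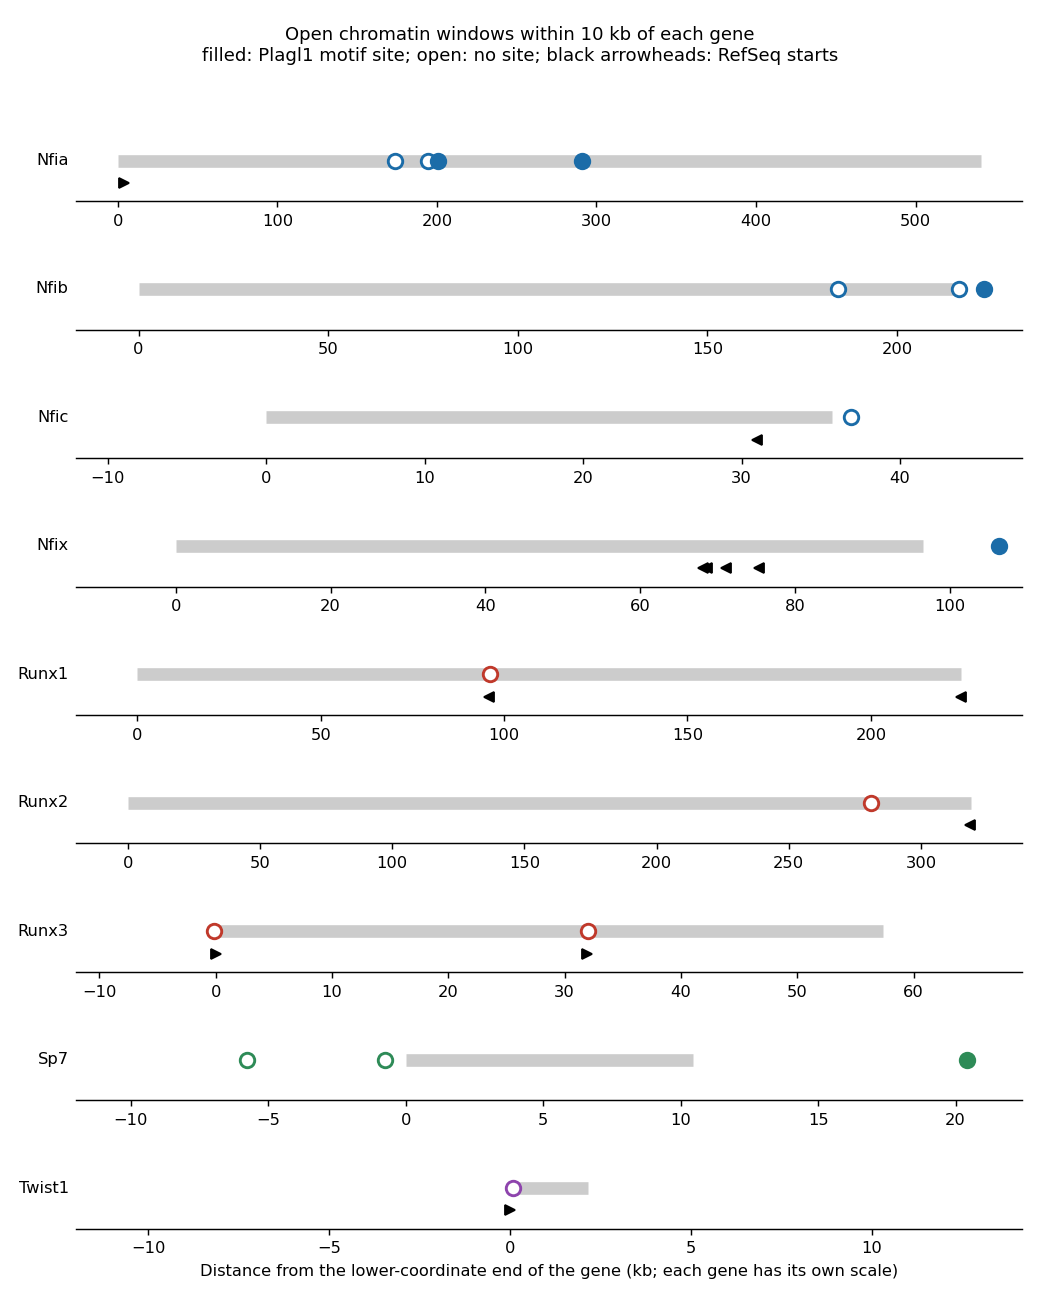
Position of each window (circle; filled where it holds a Plagl1 motif site) along each gene (grey bar), in kb from the gene's lower-coordinate end, with each gene on its own scale and black arrowheads for the RefSeq starts and their direction. Windows of Runx1, Runx3 and Twist1 sit at a start, the 4 windows of Nfia lie deep in the gene, and the window of Nfix lies beyond the gene's end.

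Windows lay at annotated starts of Runx3, Runx1 and Twist1, and at no start of the other genes in the promoter table. Promoter sequences, here 250 bases before to 50 after a start, came from RefSeq on GRCm38.p6, the assembly behind mm10. They were at hand for 7 of the 9 genes, with 12 promoters, and not for Nfib and Sp7. A window overlapped 4 of the 12 (33.3%, exact 95% interval 9.92 to 65.1), beside 25.1% of the 32851 promoters in the table. The 4 were both promoters of Runx3, the downstream promoter of Runx1, and the promoter of Twist1. They are printed below 5′ to 3′ on the gene's strand, with the bases that a window covers in capitals, to show which side of the start was listed as accessible.
Runx3 upstream promoter, chr4:135120395-135120694, plus strand: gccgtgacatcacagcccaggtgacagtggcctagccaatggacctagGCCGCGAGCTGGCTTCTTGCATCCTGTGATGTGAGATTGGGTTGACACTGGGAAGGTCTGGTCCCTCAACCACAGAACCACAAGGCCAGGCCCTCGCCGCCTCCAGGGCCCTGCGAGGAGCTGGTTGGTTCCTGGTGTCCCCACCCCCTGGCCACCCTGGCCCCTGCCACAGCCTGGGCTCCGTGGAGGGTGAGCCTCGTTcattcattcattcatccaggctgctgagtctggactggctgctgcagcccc
Runx3 downstream promoter, chr4:135152295-135152594, plus strand: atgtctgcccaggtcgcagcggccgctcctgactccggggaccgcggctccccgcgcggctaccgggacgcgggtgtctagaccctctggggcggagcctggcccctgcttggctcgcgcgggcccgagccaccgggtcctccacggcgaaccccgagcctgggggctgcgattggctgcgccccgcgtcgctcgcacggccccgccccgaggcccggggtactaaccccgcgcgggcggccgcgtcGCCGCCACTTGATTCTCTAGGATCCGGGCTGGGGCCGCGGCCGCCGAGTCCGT
Runx1 downstream promoter, chr16:92697280-92697579, minus strand: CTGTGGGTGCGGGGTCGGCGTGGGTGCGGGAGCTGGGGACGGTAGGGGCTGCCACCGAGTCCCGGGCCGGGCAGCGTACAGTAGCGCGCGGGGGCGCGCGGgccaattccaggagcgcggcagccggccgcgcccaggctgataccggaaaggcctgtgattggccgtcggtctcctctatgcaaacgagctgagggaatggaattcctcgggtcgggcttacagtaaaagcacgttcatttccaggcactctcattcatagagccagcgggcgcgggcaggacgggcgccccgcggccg
Twist1 promoter, chr12:33957421-33957720, plus strand: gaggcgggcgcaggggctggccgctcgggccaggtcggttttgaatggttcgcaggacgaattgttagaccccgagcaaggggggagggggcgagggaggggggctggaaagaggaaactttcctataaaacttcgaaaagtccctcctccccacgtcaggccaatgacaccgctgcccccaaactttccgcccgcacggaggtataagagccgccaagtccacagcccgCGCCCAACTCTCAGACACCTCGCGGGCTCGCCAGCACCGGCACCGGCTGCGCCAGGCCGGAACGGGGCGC

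Runx3 (chr4:135120645-135177990), a runt-domain factor of T cells and sensory neurons that is also made in cartilage, had 2 windows and both of its annotated starts were covered. The window at the upstream start, chr4:135120443-135120643, had its midpoint 102 bp upstream of that start, and all 201 of its bases fall within the printed promoter. The window at the downstream start, chr4:135152542-135152742, had its midpoint 97 bp downstream of that start, inside the gene, and overlapped the promoter by 53 bases. The composition of these windows was far apart. The upstream window was 66.2% G and C with 7 CpG dinucleotides (3.5 per 100 steps between neighbouring bases). The downstream window was 82.6% G and C with 34 CpG (17 per 100 steps). For CpG content, 16.9% of all windows lay at or below the upstream one and 97.4% at or below the downstream one. Neither window held a Plagl1 motif site. The noncoding gene Gm16225 starts on the opposite strand beside Runx3, so the upstream window lies between both starts and cannot be assigned to Runx3 alone.

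Runx1 (chr16:92601466-92826074), best known as a factor of blood stem cells and also made in mesenchyme, had 1 window, chr16:92697479-92697679. Its midpoint lay 250 bp upstream of the downstream start and it overlapped 101 promoter bases. The window was 74.6% G and C with 11.5 CpG per 100 steps. The upstream start had no window of its own, and the same window, 128 kb away, was the nearest to it. The 2 promoters of Runx1 differed in composition in the direction seen for the windows of Runx3, with 69.0% G and C and 35 CpG downstream against 45.0% and 2 CpG upstream.

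Runx2 (chr17:44495987-44814797) had 1 window, chr17:44777151-44777351, and it was not at the only listed Runx2 start. The midpoint lay inside Runx2, 37.4 kb downstream of the annotated Runx2 start, and 85 bp downstream of the start of Supt3, a gene for a subunit of SAGA-type coactivator complexes that overlaps Runx2. The window was 71.1% G and C with 9 CpG per 100 steps. It overlapped 65 bases of the Supt3 promoter, which is printed because it is the accessible element found inside Runx2. Window bases are in capitals.
Supt3 promoter, chr17:44776916-44777215, plus strand: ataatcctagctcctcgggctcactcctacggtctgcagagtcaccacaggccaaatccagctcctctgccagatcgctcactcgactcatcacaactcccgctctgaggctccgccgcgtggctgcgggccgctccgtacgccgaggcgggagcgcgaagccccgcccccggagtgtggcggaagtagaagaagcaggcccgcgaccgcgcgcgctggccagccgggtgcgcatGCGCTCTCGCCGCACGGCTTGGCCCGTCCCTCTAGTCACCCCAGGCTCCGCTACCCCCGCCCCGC

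The upstream promoter of Runx2 was 45.3% G and C with 2 CpG, much like that of Runx1, and no window was closer to its start than this one. Beyond the 10 kb flank, the next window outside Runx2 lay 390 kb away. The count of 1 window for Runx2 thus rests on an element at another gene's start.

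Runx-type sequences were found in all 3 upstream Runx promoters and in neither downstream one, that of Runx1 or that of Runx3. No downstream start was listed for Runx2, so no downstream promoter of it was searched. TGTGGT or TGCGGT was searched on both strands, and 6 of the 12 promoters held a match, beside 22.4% of all promoters in the table. The other 3 with a match were promoters of Nfix. There were 2 matches in the upstream promoter of Runx1, 4 in that of Runx2 and 2 in that of Runx3. The stretches are printed on the gene's strand, with matches in capitals (ACCACA is TGTGGT read on the other strand), because they share a run of letters.
Runx1 upstream, chr16:92826025-92826054: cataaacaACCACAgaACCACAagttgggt
Runx2 upstream, chr17:44814578-44814612: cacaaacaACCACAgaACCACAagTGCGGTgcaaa
Runx3 upstream, chr4:135120503-135120532: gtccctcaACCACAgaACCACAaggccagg

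The longest run common to the 3 upstream promoters was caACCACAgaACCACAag, of 18 bases. In the whole promoter table it occurred in 4 promoters, those of Runx1, Runx2, Runx3 and Gm16225, where the last is the same DNA as that of Runx3. Only in Runx3 did the run lie in a window, with its matches spanning positions -134 to -121 relative to the start. In Runx1 and Runx2 the matches of the run began 28 and 23 bp downstream of the start, and no window covered them. The remaining match of Runx2, outside the printed stretch, lay upstream of the start at positions -80 to -75, also in no window. A match of letters is a description and not a measurement of Runx binding.

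Twist1 (chr12:33957671-33959831) had 1 window, chr12:33957651-33957851, with its midpoint 80 bp downstream of the start. It covered 70 bases of the printed promoter and was 77.6% G and C with 12 CpG per 100 steps. The gene is short, at 2.16 kb, and 45% of other protein-coding genes of 0.5 to 2 times its length had a window. No other window was found within 50 kb of Twist1, and the nearest lay 528 kb away. The promoter held TATAAA, a match shared by 13.6% of all promoters and by none of the other 11 promoters. That search ran on both strands over the whole promoter, without regard to distance from the start. The match is therefore no call of a TATA box.

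Among these promoters, GC content differed between those with a window and those without. The 4 overlapped promoters ran from 63.7% to 77.3% G and C (median 67.5%), and the 8 others from 44.3% to 63% (median 47.3%), so the ranges did not overlap. CpG content did overlap, at 2.68 to 15.1 per 100 steps in the overlapped promoters and 0.669 to 8.03 in the others. The upstream promoter of Runx3 had fewer CpG than the promoter of Nfic and yet had a window. Across the whole table, promoters with a window had a median of 63.7% G and C (range 37.3% to 87%). Those without one had a median of 49.7% (range 10.3% to 89.3%). The same direction thus held for promoters at large, but there the ranges overlapped widely.

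**Figure D2:**
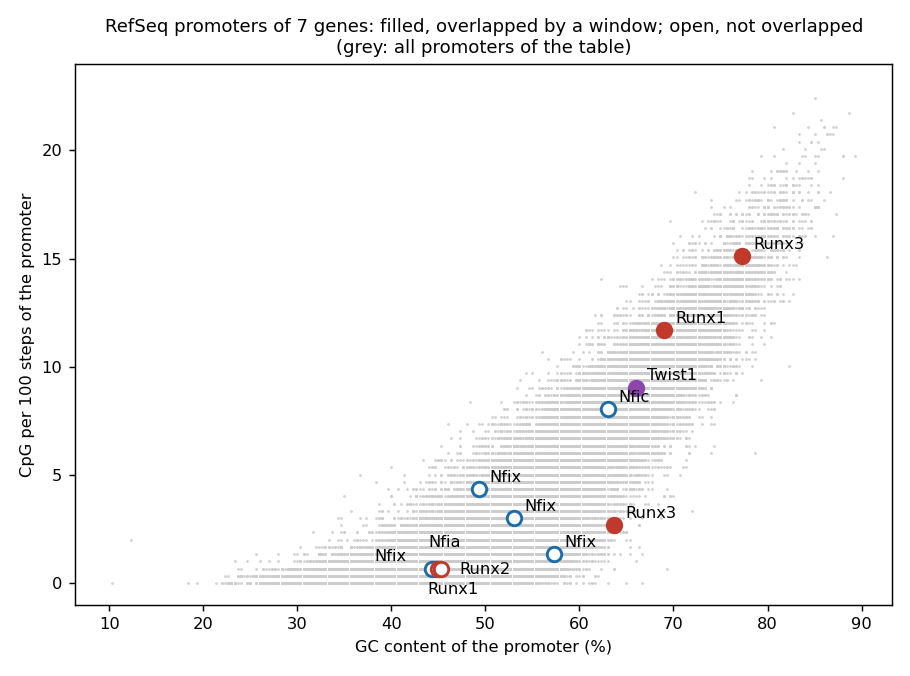
GC content (%) against CpG per 100 steps for the 12 RefSeq promoters of 7 of the genes, filled where a window overlaps the promoter and open where none does, over all promoters of the table (grey). The filled points lie at 63.7% GC or above, and the open points at 63% or below.

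None of the nuclear factor I promoters in the table had a window. Nfic (chr10:81396191-81431919), the member of the family with the known root phenotype, had 1 window, chr10:81432980-81433180. It was placed 1161 bp beyond the gene's higher-coordinate end and 5.91 kb upstream of its only listed start. Nfic is on the minus strand and its span reaches upstream of that start, so a start nearer the window may be missing. The window was 56.7% G and C with 4 CpG per 100 steps and no Plagl1 motif site. The promoter of Nfic itself was 63% G and C with 24 CpG, and no window was nearer to it. Another 4 windows lay between 10 and 50 kb from the gene, the nearest at 11.7 kb.

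Nfix (chr8:84704712-84801238), a factor of muscle and brain development, had 1 window, chr8:84811010-84811210, at 9.87 kb beyond its higher-coordinate end and 31.0 kb upstream of the nearest of its 4 annotated starts. Nfix is on the minus strand and its span reaches upstream of these starts, so a start nearer the window may be missing. The end of Dand5, which encodes a secreted antagonist of nodal signalling, was closer to the window than that of Nfix, at 4.29 kb. The window was 73.6% G and C with 13.5 CpG per 100 steps, and it held 1 Plagl1 motif site. It fell just inside the 10 kb limit, and 7 further windows lay between 10 and 50 kb from the gene, the nearest at 15.4 kb. Without the flank Nfix would have no window.

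Nfia (chr4:97578066-98118876), a factor of glial and brain development, had 4 windows, the most among the 9 genes. All lay inside its 541 kb, between 170 and 287 kb downstream of its only listed start, and none was within 10 kb of either end. Nfia is on the plus strand and its span reaches upstream of that start. The list of its starts may therefore be incomplete, and a start nearer these windows may be missing. Of the 4, 3 lay within 26.9 kb of each other, in or near the noncoding gene Gm38709. The remaining one, chr4:97868948-97869148, lay 39 bp upstream of the start of the noncoding gene Gm19417. GC content in the 4 was 59.2%, 70.1%, 77.6% and 62.2% in order of position, and CpG per 100 steps was 6, 8.5, 14 and 9.5. The third by position was the richest in both. Of 599 other protein-coding genes of 0.5 to 2 times its length, 3.17% had as many windows or more, and their median was 1. Read per 100 kb of gene and flanks, Nfia had 0.713 windows, beside a median of 2.85 among protein-coding genes with a window. Those genes had a median length of 23164 bp, so that median is not matched to the length of Nfia.

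Nfib (chr4:82290173-82506751), a factor of lung and brain development, had 3 windows of very different kinds. The first by position, chr4:82474394-82474594, lay 32.3 kb inside the gene and was 37.3% G and C with 3 CpG in all (1.5 per 100 steps). It was the only 1 of the 17 windows (5.88%) under 50% G and C, beside 7.84% of all windows, and 0.741% of all windows had a GC content as low or lower. The next, chr4:82506375-82506575, lay inside the gene 276 bp from its higher-coordinate end and was 81.1% G and C with 28 CpG. The last, chr4:82513116-82513316, lay 6.46 kb beyond that end and 5.23 kb downstream of the start of the noncoding gene Gm11266, and was 79.1% G and C with 33 CpG. It held 1 Plagl1 motif site. No further window lay within 50 kb of Nfib, and the nearest was 353 kb away.

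Sp7 (chr15:102356603-102367035), the zinc finger factor that osteoblasts need to mature, had 3 windows around a gene of 10.4 kb and none inside it. The window at chr15:102350708-102350908 lay 5.79 kb beyond the lower-coordinate end, 49 bp from the start of Aaas, a nuclear pore gene, and 19 bp from the start of the noncoding gene Gm36246 on the other strand. The window at chr15:102355734-102355934 lay 769 bp beyond the lower-coordinate end of Sp7 and was 66.7% G and C with 15 CpG. The window at chr15:102376929-102377129 lay 9.99 kb beyond the higher-coordinate end, just inside the limit, and was 70.1% G and C with 19 CpG. Only the last held a Plagl1 motif site. The density was 9.86 windows per 100 kb, higher than in 98.3% of protein-coding genes. With 4 further windows at 10 to 50 kb, and another gene at the start of 1 of the 3, this count describes the neighbourhood as much as Sp7.

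**Figure D3:**
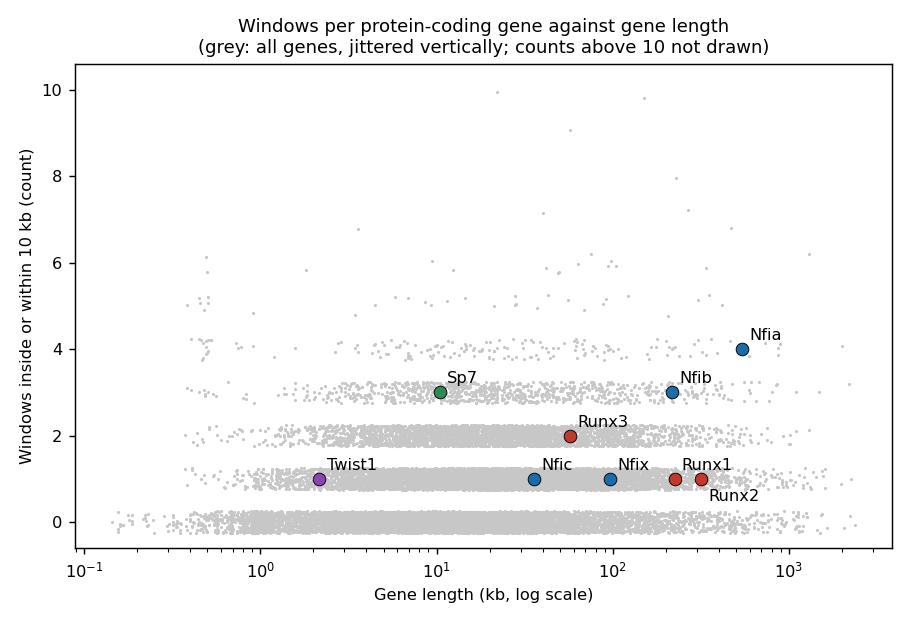
Number of windows inside or within 10 kb of a gene against gene length (kb, log scale) for all protein-coding genes (grey points, jittered vertically; counts above 10 are not drawn) and the 9 genes (coloured, named). Nfia (4), Nfib (3) and Sp7 (3) lie above most genes of their length, and the other 6 genes have 1 or 2.

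Gene length ordered these counts only in part. The Runx genes, 601 kb in summed length, held 4 windows, or 0.605 per 100 kb with flanks. The nuclear factor I genes, 890 kb in all, held 9, or 0.928 per 100 kb. Sp7 and Twist1, 12.6 kb together, held 4, or 7.61 per 100 kb, where the fixed flanks make up most of the length. Runx1 and Runx2, at 225 and 319 kb, had 1 window each, which is the median of other genes of 0.5 to 2 times their length.

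Base composition of the 17 windows was close to that of the whole list. Their GC content ran from 37.3% to 82.6% with a median of 70.1%, beside a median of 66.7% over all windows. Their CpG content ran from 1.5 to 17 per 100 steps with a median of 9.5, beside 9 over all windows. A ratio of observed to expected CpG, computed with G and C taken as equally frequent, was at least 0.6 in 14 of the 17 (82.4%), beside 74.8% of all windows. The 3 below were the AT-rich window of Nfib (0.431), the window of Nfic (0.497) and the upstream window of Runx3 (0.320).

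**Figure D4:**
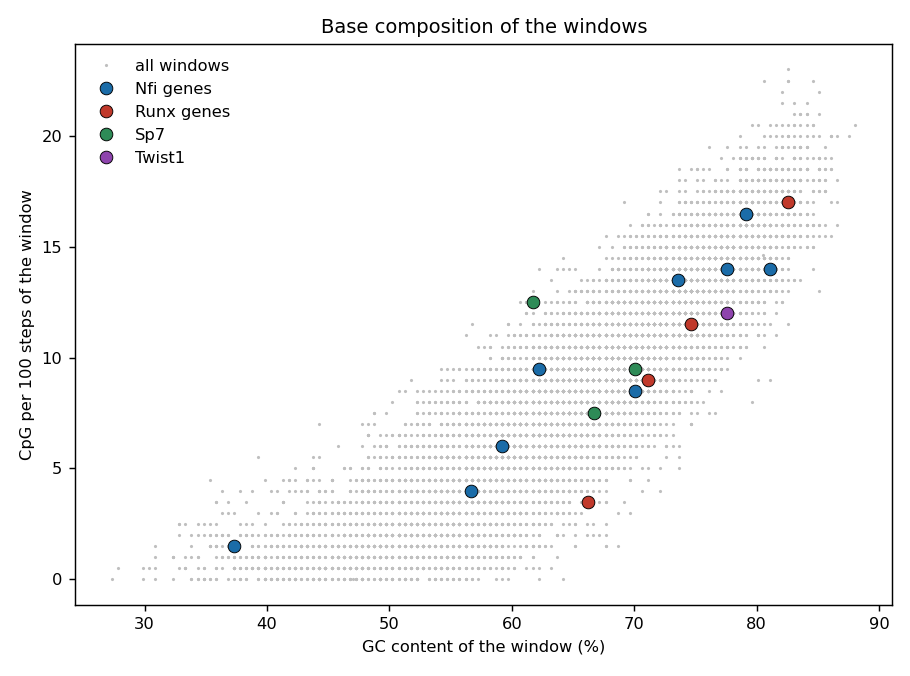
GC content (%) against CpG per 100 steps for all windows (grey) and the 17 windows of the 9 genes (coloured by family). The points spread over most of the range of the list, from the Nfib window at 37.3% GC to the downstream Runx3 window at 82.6%.

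Starts of any gene in the promoter table lay within 1 kb of 7 of the 17 windows (41.2%, exact 95% interval 18.4 to 67.1), beside 66.5% of the 13114 windows on chromosomes that the table covers. The median distance to the nearest such start was 5007 bp, against 182 bp over those windows. This distance is too long where a start is missing from the table, as for Nfib and Sp7. It may also be too long for Nfia, Nfic and Nfix, whose spans reach upstream of their listed starts. All 4 Runx windows were within 1 kb of a start, which for Runx2 was that of Supt3. Among the nuclear factor I windows 1 of 9 was, at Gm19417. No start was listed for Nfib, which held 3 of those 9 windows, 1 of them 276 bp from its gene end. These family counts therefore depend on which starts were listed.

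Plagl1 motif sites were found in 5 of the 17 windows (29.4%, exact 95% interval 10.3 to 56), beside 32.9% of all windows. Each of the 5 held 1 site. By gene, 4 of the 9 had a site in a window (44.4%), beside 25.1% of all protein-coding genes. That base holds genes without any window, which cannot have such a site, while all 9 genes here had a window. Of the 13028 protein-coding genes with a window, 5483 had such a site. Sites are 10 bp long and are printed on the motif strand, with positions 4 to 7 counted from the 5′ end in capitals, where all sites of the file have G at position 6 and 99.5% have G at positions 4 and 7.
Sp7, chr15:102377087-102377096: caaGGGGcac
Nfib, chr4:82513213-82513222: cggGAGGccc
Nfia, chr4:97868951-97868960: ccgGGGGccc
Nfix, chr8:84811169-84811178: cagGAGGccg
Nfia, chr4:97778583-97778592: cagGAGGcaa

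The deposited motif score, HOMER's log-odds score of a match, was 6.55 for the site of Sp7, which 12.4% of all sites reached. That of Nfib scored 6.46 and lay 3 bp from the middle of its window. The sites of Nfia scored 6.05, near the edge of the window at Gm19417, and 5.73. The site of Nfix scored 5.85. The 5 scores thus ran from 5.73 to 6.55 with a median of 6.05, inside the range of 5.51 to 7.74 over all sites, whose median was 5.94. All 5 sites lay on the minus strand of the chromosome, beside 48.8% of all sites, with an exact 95% interval of 47.8 to 100 for 5 of 5.

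**Figure D5:**
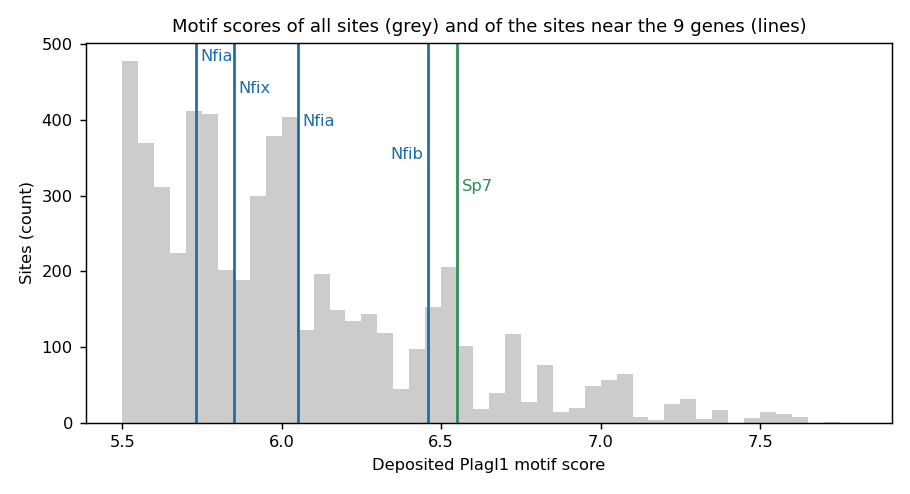
Histogram of the deposited motif scores of all 5753 sites (grey, count per bin) with lines at the 5 sites near the 9 genes. The sites of Nfib and Sp7 score 6.46 and 6.55, and none of the 5 reaches the upper end of the scale.

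The site letters themselves were common in the file for some genes and rare for others. The sequence of the Nfix site occurred 41 times among all sites, that of the Nfia site at Gm19417 40 times, and that of the Nfib site 37 times. The other Nfia sequence occurred 11 times and the Sp7 sequence 4 times. The windows at the starts of Runx1, Runx3 and Twist1 held 0 sites, as did the windows of Runx2 and Nfic. The 5 sites lay in the gene body of Nfia and in the flanks of Nfib, Nfix and Sp7, where no start was at hand for Nfib and Sp7.

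All 12 promoters, with or without a window, were searched for the 642 distinct site sequences of the file, on both strands. Of the 12 promoters, 5 held such a sequence, beside 38.9% of all promoters. None of these 5 was overlapped by a window, where 4 of the 12 and 25.1% of all promoters were. The overlapped share of all promoters with such a sequence was not computed. No relation between these sequences and windows can therefore be read from this count. The 5 were the promoters of Nfia (score 6.01), Nfic (5.52) and Nfix (6.05 and 5.72 at 2 starts) and the upstream promoter of Runx1 (5.98). No other promoter of the 12 held these letters. Nuclear factor I half-sites (TTGGC) were found in 8 of the 12, beside 46.7% of all promoters, and GGGCGG, the letters of a GC box that Sp-type zinc fingers bind, in 4, beside 35.7%.

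Windows at factors that work with these genes were counted by the same rule, which 59.5% of all protein-coding genes met. Of 12 Runx partners and co-regulators, 11 had a window, among them Cbfb, the DNA-binding partner of all Runx proteins, with 2, the histone deacetylase Hdac5 with 3, and the Groucho co-repressors Tle2 with 3 and Tle3 with 2. Zbtb16 had 0. Of 10 Twist1 partners and other helix-loop-helix or Id factors, 8 had a window, with 4 at Id3, 3 at the E protein gene Tcf4, and 2 each at Id1 and Id2, which block E proteins. Hand1 and Hand2 had 0. Of 12 other transcription factors of osteoblasts and odontoblasts, 11 had a window, including Atf4, Msx2 and Zfp521 with 2 each and Barx1 with 1, while Lef1 had 0. Of 8 other Sp genes, 6 had a window, with 3 at Sp1, 2 at Sp2 and 1 each at Sp3 and Sp4, and 0 at Sp5 and at Sp6, a gene of dental epithelium.

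Of 11 genes listed as targets in mineralised matrix, several of them regulated by Runx2 and Sp7, 5 had a window. By the same rule 59.5% of all protein-coding genes had one, and the counts below are read beside that share. Col1a1, a chain of type I collagen, had 2 windows, and the phosphatase gene Alpl, Bglap (osteocalcin) and Col1a2 had 1 each. Nes, which is on the list but is not a gene of matrix, also had 1. The 6 without were Dmp1, Dspp, Ibsp, Mepe, Spp1 and Phex. Of markers for the labelled tissue, 8 of 10 genes of dental mesenchyme and odontoblasts had a window, or 6 of 8 without Sp7 and Runx2, but the dentine genes Dspp and Dmp1 had 0. Of dental epithelium markers, Ambn had 1 window and Amelx, Enam, Cdh1, Epcam, Krt5 and Krt14 had 0. Of other cell types, windows were found at 4 of 6 immune markers and 3 of 5 endothelial markers. They were also found at 3 of 5 markers of glia and neurons, where 59.5% of all protein-coding genes had a window. A window does not show that a gene is transcribed, and the part that other cell types have in the windows of the 9 genes was not tested.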

How the data were processed

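ATAC-seq libraries from 3 samples stand behind a pair of deposited tables that name no library, so all values are pooled. Reads were processed with cutadapt 1.18, Bowtie2 2.3.5, Picard and MACS2 2.1.1 on mm10, per the submitters' processing notes. Per the file headers, HOMER annotatePeaks was run on a union peak list with the Plagl1 motif. The sources used here do not give how that list was selected. The deposited GC value is a fraction of bases and the deposited CpG value a ratio of CpG dinucleotides to steps, and both were multiplied by 100. The deposited score is HOMER's log-odds score, with no log base stated.

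Positions count from 1. The letters of all 1783 sites that lie within RefSeq promoters matched there, and the GC and CpG counts matched in all 1715 windows that promoters cover whole. Genes came from RefSeq GRCm38.p6, matched by symbol (9 of 9), and promoters from a RefSeq table of the same assembly (7 of 9). The gene table gives no exons or strand. Assignment was tested on simulated windows. All members were named, with every window and site, and up to 4 genes of each related list with most windows. Nes, and in some lists the genes without a window, were named as well. A dental epithelium marker is not reported here. Alternatives changed the distance rule, the score minimum and the summary. The members and lists were chosen with earlier results of these data known. Python 3.11.15, numpy 2.4.6, pandas 2.3.3, scipy 1.17.1 and matplotlib 3.10.9 were used.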

Additional observations from a re-analysis of the deposited data

How the results depend on the processing

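Of 45 alternative values, 30 stayed within 1.5 times the reported count, or within the exact 95% binomial interval of a reported median, among them every median of GC and CpG content. Genes with a window numbered 6 of 9 with the gene span alone (41.5% of all protein-coding genes), 7 with a flank of 1 kb (53.5%), 8 with 3 kb (55.1%) and 9 with 50 kb (71.9%). Genes with a window at an end numbered 3 within 500 bp (42.7% of all) and 5 within 3 kb (51.6%). Counts followed the distance rule. With the gene span alone there were 10 windows, and with a flank of 50 kb there were 32. Windows with a motif site fell from 5 to 2 with the gene span alone or with a flank of 1 or 3 kb, and rose to 9 with 50 kb. Sites went from 5 to 2 under the same 3 rules and to 10 with 50 kb. A score of at least 6 left 3 windows and 3 sites, and a score of at least 6.5 left 1 window and 1 site, that of Sp7. Windows per 100 kb over the 9 genes were 1.01, and 0.665 in the gene spans alone. The other shifts come from counting fewer or more windows or sites, and this one also from leaving the flanks out of the length. No paired analysis was possible because the tables hold no value per library, and for the same reason no library could be left out. Read depth is unknown, so its limit on which windows were listed cannot be given.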
